A study of Mus musculus with 170 samples.

Results

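Brain endothelial cells of old mice were compared with those of young mice, over all genes of the deposited count table. The comparison took every library labelled as brain endothelium, which were 7 of the 170 libraries: 4 from mice of 22 to 24 months (old) and 3 from mice of 2 months (young). The study profiled 23 purified mouse cell types at these ages by bulk RNA sequencing. Both groups were of C57/Bl6 background with no treatment named, and each library came from cells isolated by fluorescence-activated sorting from tissue pooled over 5 healthy animals. The labels number the old libraries 1 to 4 and the young libraries 1, 3 and 4. The labels used here name no sorting antibodies, sex or brain region. Because a library is a pool, p-values below measure the spread between pools and not between single animals.

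Endothelial cells line every vessel, and those of the brain also form the blood-brain barrier. They seal their contacts with tight junctions, carry nutrients across with dedicated transporters, pump out foreign compounds and keep vesicle traffic low. Wnt signals from neighbouring brain cells maintain this program, and arteries, capillaries and veins each express their own set of genes.

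The libraries held 2240391 to 3509977 counts and 21420 to 28471 detected genes each. Cldn5, a tight junction protein, was measured at 607 to 799 CPM (counts scaled by library size) and Pecam1, an adhesion molecule of endothelial contacts, at 322 to 435 CPM over the 7 libraries, so both markers of the labelled cell type were present in each. The summed level of 12 endothelial markers was 12000 to 13679 CPM in the young and 11913 to 12891 CPM in the old libraries. The summed level of 10 brain endothelial markers was 12389 to 14242 CPM in the young and 10743 to 11735 CPM in the old libraries, with no overlap. Of these sums the marker Itm2a alone held 4117 to 5088 CPM in the young and 2798 to 3357 CPM in the old libraries. Itm2a was the 1 marker of the 10 that passed the test below. Markers of other cell types were detected too. Pericyte markers summed to 2261 to 7488 CPM, and hemoglobin and other erythroid markers to 4441 to 15145 CPM in the young and 6061 to 24694 CPM in the old libraries. Oligodendrocyte markers ranged from 788 to 3179 CPM, astrocyte markers from 340.1 to 1183 CPM and microglial markers from 42.9 to 930 CPM, while T cell markers stayed at 2.79 to 8.02 CPM. The first principal component (30.3% of variance) separated the libraries numbered 1 and 2 from those numbered 3 and 4, and the second (21.4%) separated the ages. Microglial markers followed the numbers, at 43.0 CPM in young 1, 42.9 in old 1 and 89.2 in old 2 against 253 to 930 CPM in the libraries numbered 3 and 4. What the numbers stand for is not stated in the labels.

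**Figure D1:**
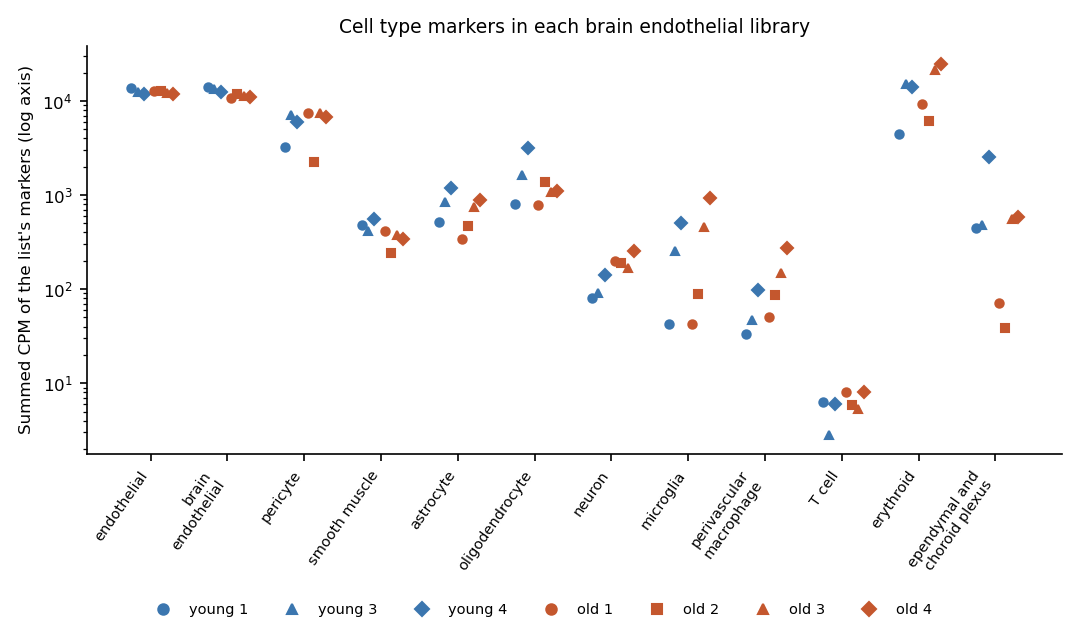
Summed CPM (log axis) of 12 marker gene lists in the 3 young and 4 old brain endothelial libraries, 1 point per library with its replicate number as the symbol. Endothelial markers lie between 11913 and 13679 CPM in all 7 libraries, while microglial markers span 42.9 to 930 CPM.

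Of 12203 genes tested, 87 (0.713%) passed an adjusted p of 0.05 in edgeR's quasi-likelihood test: 51 (0.418%) were higher and 36 (0.295%) lower in old brain endothelium. The median log2 fold change was 1.43 among the genes that rose and −0.89 among those that fell, and 37 of the former and 15 of the latter changed at least 2-fold. In all 87 the old and young libraries did not overlap, which held in the higher direction for 5.14% and in the lower direction for 5.91% of all genes tested. An unadjusted p under 0.05 was reached by 1323 genes (10.8%), and 49.7% of genes had a log2 fold change above 0. In bulk libraries, fewer cells of a type and less RNA per cell cannot be told apart, and the age of these pools cannot be told apart from the cohort they were raised in.

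The numbers of genes called moved with the model more than their direction did. With the replicate number as a block, 212 genes passed (1.74%), 82 higher (0.672%) and 130 lower (1.07%), among them 48 of the 51 and 32 of the 36. The block fit takes the age change from old 1, 3 and 4 against young 1, 3 and 4, because old 2 has no young partner. In that fit markers of other cell types passed as well, with 4 of 6 erythroid and 2 of 11 microglial markers higher and 3 of 9 oligodendrocyte markers lower, and 1 or 2 markers each of pericytes, smooth muscle, astrocytes, perivascular macrophages and platelets. Their part in the added calls was not tested. DESeq2 called 262 (2.15%), 98 higher (0.803%) and 164 lower (1.34%), including all 87. Leaving out 1 library gave 46, 40, 28 and 27 higher genes without old 1, 2, 3 and 4, and 40, 18 and 24 without young 1, 3 and 4. The lower genes numbered 91, 18, 11 and 9 without old 1, 2, 3 and 4, and 31, 4 and 9 without young 1, 3 and 4. No gene was called in the opposite direction in any of these fits. Whichever library was left out, 18 of the 51 and 4 of the 36 kept their call.

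**Figure D2:**
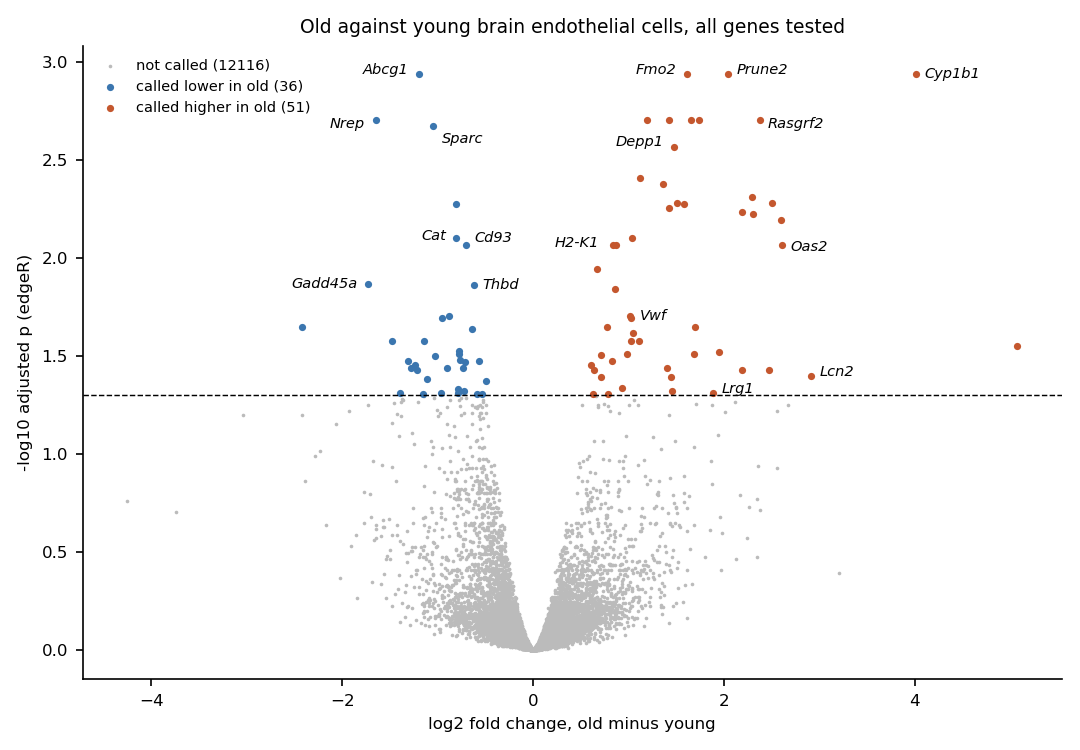
Log2 fold change, old minus young, against −log10 of the adjusted p for 12203 genes; each point is a gene, and the dashed line is an adjusted p of 0.05. Above the line lie 51 genes that were higher and 36 that were lower in old brain endothelium.

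The largest rise among the genes named here was in Cyp1b1 (chr17:79701537-79715061 on GRCm38), a cytochrome P450 that oxidises steroid hormones and polycyclic aromatic compounds. Cyp1b1 was at 2.51, 1.86 and 0.715 CPM in young 1, 3 and 4 and at 23.5, 31.5, 25.8 and 28.6 CPM in old 1 to 4. Its mean went from 1.69 ± 0.907 to 27.3 ± 3.48 CPM (mean ± SD, n = 3 young and 4 old), a log2 fold change of 4.01 ± 0.36 (SE, adjusted p = 0.00116). The highest young value was 2.51 CPM and the lowest old value 23.5 CPM. Fmo2 (chr1:162874317-162898726), a flavin-containing monooxygenase, had 63.1, 54.8 and 69.7 CPM in the young and 209, 184, 218 and 153 CPM in the old libraries. This was a log2 fold change of 1.61 ± 0.15 (SE, adjusted p = 0.00116), and its old libraries all lay above the young. Cyp2e1 (chr7:140763739-140774987), the P450 that oxidises ethanol, was measured at 19.2, 9.29 and 8.57 CPM in young 1, 3 and 4 and at 45.2, 72.8, 54.4 and 52.9 CPM in old 1 to 4. Its log2 fold change of 2.19 ± 0.29 (SE, adjusted p = 0.00583) lost its call without young 3 (adjusted p = 0.0593). Gstt1, a glutathione transferase, rose from 6.26 ± 0.359 to 20.3 ± 5.12 CPM (log2 fold change 1.68 ± 0.29 SE, adjusted p = 0.0309) and Acsl6, a long-chain acyl-CoA synthetase, from 10.9 ± 2.65 to 35.5 ± 9.09 CPM (log2 fold change 1.70 ± 0.28 SE, adjusted p = 0.0224). Gstt1 and Acsl6 each lost the call without old 3, old 4, young 1, young 3 or young 4, with adjusted p up to 0.154 and 0.0952, while Cyp1b1 and Fmo2 kept it in every fit that left out 1 library.

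Rasgrf2 (chr13:91880400-92131656), an exchange factor that activates Ras, stood at 7.94, 6.50 and 5.36 CPM in the 3 young libraries and at 41.5, 37.3, 29.5 and 28.2 CPM in the 4 old ones. The log2 fold change came to 2.37 ± 0.26 (SE, adjusted p = 0.00197). Prune2 (chr19:16956118-17223932) had 21.7, 27.4 and 20.01 CPM in the young and 109.9, 106, 77.0 and 85.7 CPM in the old libraries. On the log2 scale the change was 2.04 ± 0.18 (SE, adjusted p = 0.00116), and neither gene overlapped between the ages. Depp1 (chr6:116650609-116652794), a regulator of autophagy, was measured at 399.8, 336 and 259 CPM in young 1, 3 and 4 and at 839.7, 1039, 1058 and 763 CPM in old 1 to 4. The change in log2 terms was 1.48 ± 0.17 (SE, adjusted p = 0.00271). Rassf4, a Ras-association protein whose gene overlaps Depp1 on the opposite strand, rose from 22.5 ± 6.47 to 67.2 ± 6.39 CPM (log2 fold change 1.58 ± 0.20 SE, adjusted p = 0.00531). No source used here states strand use in the counting, so reads of Depp1 and Rassf4 may not be separable. Ankrd37, an ankyrin-repeat protein, rose from 19.8 ± 2.78 to 66.4 ± 11.5 CPM (log2 fold change 1.74 ± 0.19 SE, adjusted p = 0.00197). Rasgrf2, Prune2, Depp1, Rassf4 and Ankrd37 all kept their calls whichever library was left out.

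**Figure D3:**
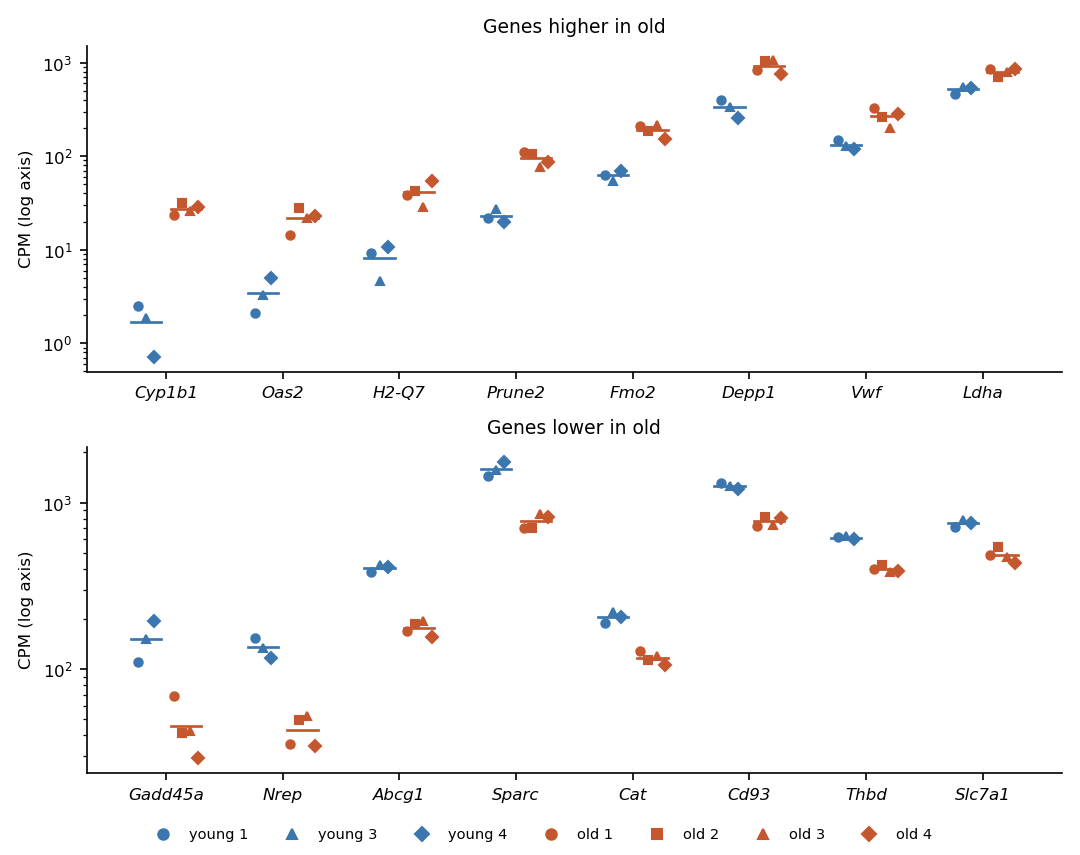
CPM (log axis) of 8 genes that were higher and 8 that were lower in old brain endothelium; each point is 1 of the 3 young or 4 old libraries, the symbol gives its replicate number, and bars are group means. Young and old points of each gene do not overlap, and Cyp1b1 spans 0.715 to 31.5 CPM.

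The MHC class I heavy-chain genes H2-K1, H2-Q6 and H2-Q7 rose in old brain endothelium. Major histocompatibility complex (MHC) class I molecules show peptides from inside the cell to cytotoxic T cells, and 3 of 20 tested genes of class I presentation were higher, 0 lower, with a median log2 fold change of 0.35 and 16 of 20 above 0. Over all genes tested 0.418% were higher, 0.295% lower, 49.7% above 0 and 10.8% at an unadjusted p under 0.05. These shares stand beside the later lists too, and all lists were chosen with earlier results of these data known. The starts of the genes that rose are printed because 3 closely related heavy-chain genes carry this result. The libraries are biased to the 3′ end of transcripts, which these windows do not cover. The likeness of the windows therefore does not show whether a read from one gene was assigned to another. The windows run from 250 bases before to 50 after each gene's start in RefSeq on GRCm38.p6, 5′ to 3′ on the gene's strand, and capitals mark a run of 24 bases shared by all 3, which 5 of 32851 mouse promoters (0.0152%) contain.
H2-K1, chr17:34000298-34000597, minus strand: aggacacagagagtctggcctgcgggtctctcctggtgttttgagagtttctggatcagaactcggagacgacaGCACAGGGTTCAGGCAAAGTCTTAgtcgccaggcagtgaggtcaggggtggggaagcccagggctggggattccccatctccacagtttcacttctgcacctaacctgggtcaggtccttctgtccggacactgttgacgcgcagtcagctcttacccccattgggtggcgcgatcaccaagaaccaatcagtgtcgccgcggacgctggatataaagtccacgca
H2-Q6, chr17:35424600-35424899, plus strand: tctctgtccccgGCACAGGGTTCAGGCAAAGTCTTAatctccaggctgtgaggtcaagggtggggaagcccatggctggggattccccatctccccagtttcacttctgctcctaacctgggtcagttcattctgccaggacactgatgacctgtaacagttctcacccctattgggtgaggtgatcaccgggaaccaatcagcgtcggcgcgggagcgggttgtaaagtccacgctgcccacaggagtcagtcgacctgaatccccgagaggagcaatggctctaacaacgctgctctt
H2-Q7, chr17:35438905-35439204, plus strand: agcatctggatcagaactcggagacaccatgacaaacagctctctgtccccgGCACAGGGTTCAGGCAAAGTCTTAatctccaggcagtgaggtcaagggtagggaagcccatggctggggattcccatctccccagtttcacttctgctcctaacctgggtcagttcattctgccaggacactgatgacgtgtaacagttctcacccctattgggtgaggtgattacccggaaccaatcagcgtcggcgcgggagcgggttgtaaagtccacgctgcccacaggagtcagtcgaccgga
The windows of H2-Q6 and H2-Q7 matched at 254 of 261 aligned positions (97.3%), and that of H2-K1 matched them at 193 of 225 (85.8%) and 192 of 225 (85.3%). The shared run began 176 bases before the start of H2-K1, 238 before that of H2-Q6 and 198 before that of H2-Q7. On both strands 3 motifs were searched: an interferon response core of GAAA followed after any 2 bases by GAAA (3.44% of promoters), the gamma-activated site TTCNNNGAA (8.3%) and an NF-kappaB site of GGGA followed after any 1 base by TTTCC (0.411%). None of these letters occurred in the windows printed. Only these exact letters were searched, and other forms of the same sites were not looked for. At shares this low, 3 windows without a match do not show that such sites are lacking. Oas2 was looked for as well and has no sequence printed here.

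H2-K1 (chr17:33996017-34000347), a classical class I heavy chain, stood at 378, 328 and 383 CPM in the 3 young libraries and at 616, 715, 569.8 and 692 CPM in the 4 old ones. Its log2 fold change was 0.84 ± 0.12 (SE, adjusted p = 0.00856), and the call was lost without young 3 (adjusted p = 0.074). H2-Q7 (chr17:35439155-35443773), a non-classical heavy chain, had 9.19, 4.65 and 10.7 CPM in the young and 38.9, 42.8, 28.7 and 54.2 CPM in the old libraries. H2-Q6 (chr17:35424850-35430055) rose from 5.82 ± 2.08 to 29.2 ± 5.11 CPM. The log2 fold changes were 2.30 ± 0.31 (SE, adjusted p = 0.00594) for H2-Q7 and 2.30 ± 0.29 (SE, adjusted p = 0.00488) for H2-Q6, and every old library exceeded every young one for all 3 genes. H2-Q6 and H2-Q7 are closely related and the likeness of their transcripts was not examined, so the split of reads between them is uncertain, here and wherever they are named. H2-D1, the other classical heavy chain, measured 692 ± 76.9 CPM in the young group and 1074 ± 195 CPM in the old (adjusted p = 0.0861, and 0.0396 with the replicate block). B2m, the light chain, measured 1745 ± 181 and 2459 ± 266 CPM (adjusted p = 0.116). Summed over all 20 genes, class I presentation was at 4585, 3894 and 4291 CPM in young 1, 3 and 4 and at 5321, 6748, 5255 and 5882 CPM in old 1 to 4. Microglia also express these genes, and the microglial marker sums were 43.0, 253 and 505 CPM in young 1, 3 and 4 and 42.9, 89.2, 454 and 930 CPM in old 1 to 4. Their part in the class I result was not tested.

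Among interferon-stimulated genes a single one passed. Of 41 tested, 1 was higher and 0 lower, with a median log2 fold change of 0.19, although 35 of 41 lay above 0. The gene that rose was Oas2 (chr5:120730333-120749853), an oligoadenylate synthetase that senses double-stranded RNA. Oas2 was at 2.09, 3.25 and 5.00 CPM in young 1, 3 and 4 and at 14.3, 27.9, 21.7 and 22.7 CPM in old 1 to 4. This was a log2 fold change of 2.61 ± 0.37 (SE, adjusted p = 0.00856), lost without young 3 (adjusted p = 0.074). Isg15, the ubiquitin-like modifier, had a log2 fold change of 0.02 (adjusted p = 0.99) and Ifit1 by 0.06 (adjusted p = 0.938). Of 8 tested genes of MHC class II presentation none passed in edgeR, with 1 at an unadjusted p under 0.05 and 0 in DESeq2. With the block 1 was higher, the protease Ctss (adjusted p = 0.038), which is also in the microglial marker list. Cd74, the class II invariant chain, measured 38.8 ± 6.21 CPM in the young group and 47.1 ± 10.5 CPM in the old. Among innate sensing genes 1 of 21, Lcn2, was higher.

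The venous genes that passed were higher and the capillary genes that passed were lower in old brain endothelium. Of 17 tested venous genes 4 were higher and 0 lower, with a median log2 fold change of 0.59 and 10 of 17 above 0, against 2 lower and 0 higher of 15 capillary genes, with a median of −0.23. Vwf (chr6:125546774-125686679), the clotting glycoprotein that veins and large vessels store, stood at 147, 128 and 119 CPM in the 3 young libraries and at 329, 259.9, 199 and 284 CPM in the 4 old ones. The log2 fold change came to 1.03 ± 0.17 (SE, adjusted p = 0.0202), and its groups did not overlap. Lcn2 (chr2:32384633-32388252), an iron-siderophore-binding secreted protein, had 2.09, 2.79 and 2.86 CPM in the young and 10.9, 9.79, 21.7 and 37.4 CPM in the old libraries. On the log2 scale the change was 2.91 ± 0.55 (SE, adjusted p = 0.0401), with the old values spread from 9.79 to 37.4 CPM. Ch25h, which makes 25-hydroxycholesterol, rose from 4.54 ± 1.56 to 17.6 ± 3.90 CPM (log2 fold change 1.95 ± 0.34 SE, adjusted p = 0.0301), and Lrg1, a secreted leucine-rich glycoprotein, from 5.60 ± 3.23 to 21.1 ± 3.53 CPM (log2 fold change 1.89 ± 0.37 SE, adjusted p = 0.0487). Each of these 4 calls was lost without old 4, young 3 or young 4. Lcn2, Ch25h and Lrg1 also lost theirs without old 3, Lcn2 and Ch25h without young 1, and Lrg1 without old 1 or old 2, and the highest adjusted p was 0.199, for Lcn2 without young 3. Platelets carry Vwf as well, and 6 platelet markers summed to 4.60 to 23.7 CPM in the young and 22.6 to 60.9 CPM in the old libraries. Their part in the result was not tested.

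With the replicate block, 7 venous genes were higher and 2 lower, and the venous median was 0.37, below the 0.58 of glycolysis in that fit. The additions were Vcam1, the leukocyte adhesion receptor (log2 fold change 0.96 in that fit, adjusted p = 0.00598), the chemokine-binding receptor Ackr1 (2.63, adjusted p = 0.0152) and the prostaglandin synthase Ptgs2 (2.11, adjusted p = 0.00482). The amino acid transporter Slc38a5 (−1.10, adjusted p = 0.0024) and the diaphragm protein Plvap (−1.90, adjusted p = 0.0287) were lower there. Plvap measured 3.72, 2.05 and 3.78 CPM in old 1, 3 and 4 but 29.0 CPM in old 2, against 8.83 to 15.4 CPM in the young libraries. Old 2 has no young partner and no weight in the age change of the block fit.

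The capillary genes that fell were Cd93 and Itm2a. The capillary list summed to 15637 to 17956 CPM in the young and 13361 to 14575 CPM in the old libraries, without overlap. The venous sums overlapped, at 1523 to 1672 CPM in the young and 1662 to 1767 CPM in the old libraries. Cd93 (chr2:148436640-148443563), a transmembrane receptor of endothelial cells that binds matrix, was measured at 1302, 1257 and 1212 CPM in young 1, 3 and 4 and at 725, 818, 738 and 813 CPM in old 1 to 4. The change in log2 terms was −0.70 ± 0.10 (SE, adjusted p = 0.00856), lost without young 3 (adjusted p = 0.0646). Itm2a (chrX:107397099-107403376), a membrane protein, stood at 5088, 4483 and 4117 CPM in the 3 young libraries and at 2902, 3357, 2798 and 3077 CPM in the 4 old ones. Its log2 fold change was −0.59 ± 0.12 (SE, adjusted p = 0.0494), and this call, near the threshold, was lost whichever library was left out, with adjusted p up to 0.198. The block added Ivns1abp, an actin-associated protein (log2 fold change −0.97, adjusted p = 0.00333).

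The arterial and Notch list had 1 higher and 0 lower of 23 tested, with a median of −0.07. The 1 was Stmn2 (chr3:8509360-8561606), a stathmin that binds tubulin and that arterial endothelium expresses as well as neurons. The young libraries held 63.1, 41.8 and 62.5 CPM of Stmn2 and the old libraries 169, 156, 119 and 191 CPM. This was a log2 fold change of 1.50 ± 0.19 (SE, adjusted p = 0.00526), and it kept its call in every fit without 1 library. Stmn2 also stands in the neuron marker list, of which it was the single called member among 5 tested. The other 4 (Snap25, Syt1, Nefl and Meg3) had log2 fold changes of −0.28 to −0.06, of which those of Syt1, Nefl and Meg3 turned to 0.23, 0.04 and 0.35 with the block, and none of the 9 neuron markers was at 0 in all libraries. The neuron sum, Stmn2 included, was 79.8 to 141 CPM in the young and 169 to 257 CPM in the old libraries. With the block, Gkn3, an arterial marker, was higher (0.69, adjusted p = 0.00598) and the arterial ligand Efnb2 lower (−0.66, adjusted p = 0.0383).

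**Figure D4:**
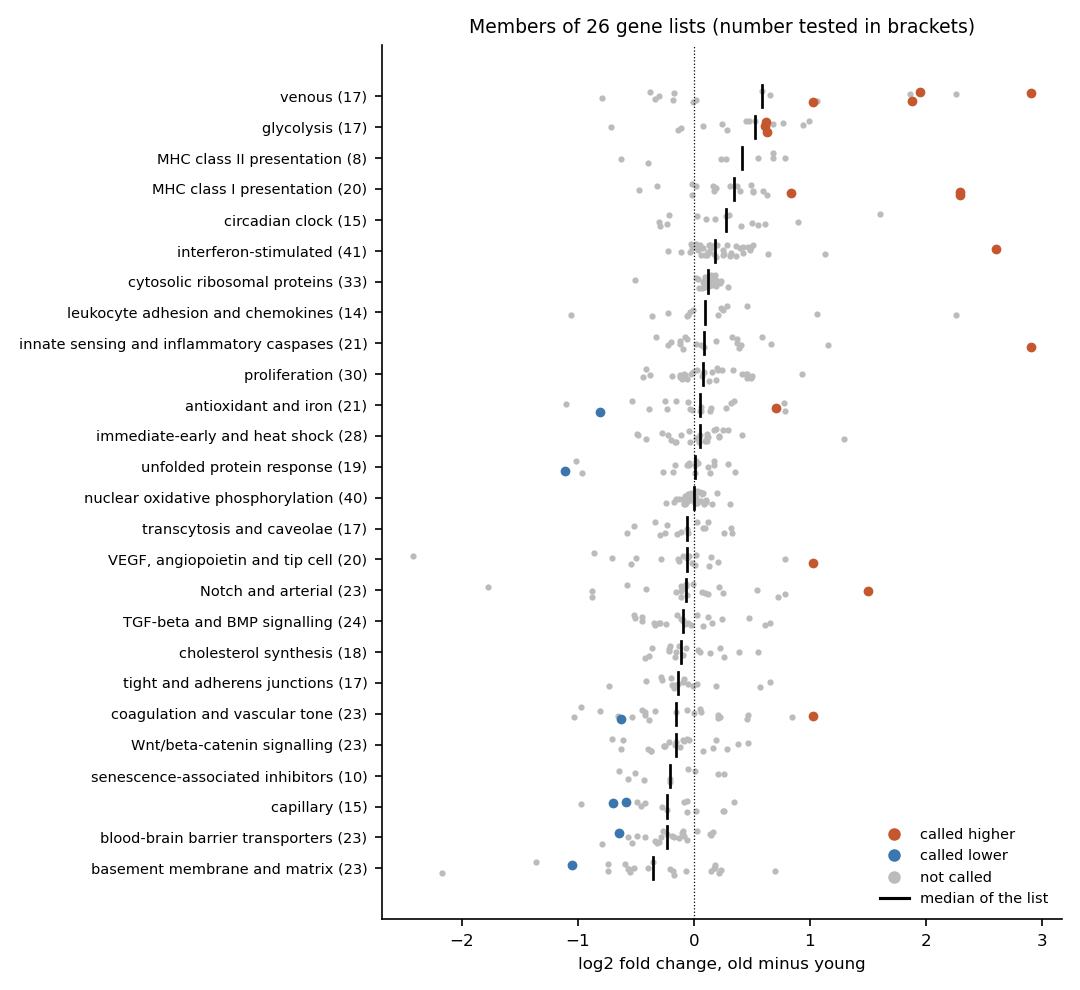
Log2 fold change, old minus young, of the tested members of 26 gene lists, ordered by list median; each point is a gene, and called genes are coloured. The venous list has the highest median (0.59) and the matrix list the lowest (−0.35) in this fit, which has no replicate block.

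Barrier genes mostly lay slightly below 0 without passing. Over the 26 functional lists, 14 of 536 distinct genes tested were higher and 7 lower, beside 0.418% and 0.295% of all genes tested. Of the 87 called genes 65 stood in neither a functional nor a marker list. Of 23 blood-brain barrier transporters 0 were higher and 1 lower, with a median log2 fold change of −0.23 and 4 of 23 above 0. The transporter sums overlapped, at 16582 to 19314 CPM in the young and 16579 to 17186 CPM in the old libraries. Slc7a1 (chr5:148327410-148399904), which imports arginine and lysine, was measured at 717, 782 and 757 CPM in young 1, 3 and 4 and at 484, 539.6, 469 and 433 CPM in old 1 to 4. The log2 fold change came to −0.64 ± 0.11 (SE, adjusted p = 0.0229), lost without old 3, old 4, young 3 or young 4 (adjusted p up to 0.154). The block made 3 transporters lower, adding Slc38a5 (above) and the iron exporter Slc40a1 (log2 fold change −0.61, adjusted p = 0.016). Slc2a1, the glucose transporter, measured 1948 ± 127 CPM in the young group and 2141 ± 156 CPM in the old (adjusted p = 0.723). The drug efflux pump Abcb1a measured 1398 ± 73.2 and 1311 ± 90.7 CPM (adjusted p = 0.828), and the lipid transporter Mfsd2a 253 ± 14.3 and 189 ± 34.6 CPM (adjusted p = 0.261).

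None of 17 junction genes passed in edgeR, with 3 at an unadjusted p under 0.05 and 1 lower in DESeq2. Their median was −0.13, with 4 of 17 above 0. The 18 junction genes listed summed to 5409 to 6182 CPM in the young and 4714 to 5089 CPM in the old libraries, without overlap. Cldn5 measured 780.2 ± 16.0 CPM in the young group and 682 ± 61.2 CPM in the old (adjusted p = 0.566). Ocln, another tight junction protein, was at 1318, 1309.8 and 968 CPM in the young and 868, 671, 776 and 576 CPM in the old libraries, without overlap (adjusted p = 0.0616, and 0.00482 with the block). Of 23 genes of Wnt/beta-catenin signalling none passed, with a median of −0.16, 8 at an unadjusted p under 0.05 and 2 lower in DESeq2. The 24 listed Wnt genes summed to 3958 to 4203 CPM in the young and 3417 to 3859 CPM in the old libraries, without overlap. With the block 2 were lower, the Wnt target Apcdd1 (−0.60, adjusted p = 0.0375) and the receptor Fzd6 (−0.65, adjusted p = 0.0347). Of 17 genes of transcytosis and caveolae none passed, with 4 at an unadjusted p under 0.05 and 1 lower in DESeq2. The sums of that list overlapped, at 7757 to 8782 CPM in the young and 7719 to 8161 CPM in the old libraries. With the block, which gives old 2 no weight, Plvap (above) and Cltc, the clathrin heavy chain (−0.54, adjusted p = 0.0179), were lower.

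Matrix genes had the lowest median of the 26 lists, −0.35 on the log2 scale, with 1 of 23 lower and 0 higher. Sparc (chr11:55394500-55423183), a collagen-binding matrix protein, stood at 1453, 1559 and 1759.9 CPM in the 3 young libraries and at 702, 705, 854 and 817 CPM in the 4 old ones. On the log2 scale the change was −1.05 ± 0.12 (SE, adjusted p = 0.00213), and it kept its call whichever library was left out. Col4a1, a chain of basement membrane collagen, measured 469 ± 23.0 CPM in the young group and 318 ± 38.4 CPM in the old (adjusted p = 0.0563, and 0.0389 with the block). Among 23 genes of coagulation and vascular tone 1 was higher, Vwf, and 1 lower, Thbd, with a median of −0.15. The block added Ptgds, a prostaglandin D synthase, as a lower member (−0.79, adjusted p = 0.0179). Thbd (chr2:148404466-148408188), which turns thrombin into an activator of protein C, had 617, 628 and 603 CPM in the young and 401, 424, 385 and 388 CPM in the old libraries. The change in log2 terms was −0.62 ± 0.09 (SE, adjusted p = 0.0138), lost without old 3, old 4, young 3 or young 4 (adjusted p 0.0546 to 0.0936). So the clotting factor Vwf and the anticoagulant Thbd changed in opposite directions, each without overlap between the ages.

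Of 20 genes of VEGF, angiopoietin and tip cell signalling 1 was higher and 0 lower, with a median of −0.06. Adm, the vasodilator peptide adrenomedullin, rose from 33.6 ± 4.58 to 68.5 ± 11.4 CPM (log2 fold change 1.03 ± 0.18 SE, adjusted p = 0.0264), lost without old 3, old 4, young 3 or young 4 (adjusted p up to 0.175). The VEGF receptors Flt1 and Kdr had log2 fold changes of 0.02 and −0.06. Aplnr, the apelin receptor, was at 12.5, 12.5 and 10.4 CPM in the young and 1.43, 5.07, 1.23 and 0.840 CPM in the old libraries (adjusted p = 0.0631, and 0.00645 with the block), and Tie1 was also lower with the block (−0.51, adjusted p = 0.0415).

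Among glycolytic enzymes 3 rose and none fell. Of 17 tested, 8 had an unadjusted p under 0.05, with a median log2 fold change of 0.53 and 14 of 17 above 0. Ldha (chr7:46841475-46855627), which converts pyruvate to lactate, was measured at 462, 552 and 541 CPM in young 1, 3 and 4 and at 863, 697, 803 and 851 CPM in old 1 to 4. Its log2 fold change was 0.63 ± 0.12 (SE, adjusted p = 0.0373). Aldoa, the fructose-bisphosphate aldolase, rose from 289 ± 30.2 to 442 ± 26.7 CPM (log2 fold change 0.61 ± 0.11 SE, adjusted p = 0.035) and Pkm, the pyruvate kinase, from 213 ± 19.6 to 329 ± 37.9 CPM (log2 fold change 0.63 ± 0.12 SE, adjusted p = 0.0494). Each of the 3 was lost without old 3, old 4, young 1, young 3 or young 4, and Ldha also without old 1, with adjusted p up to 0.26. The list summed to 1450.4, 1551 and 1759 CPM in young 1, 3 and 4 and to 2237, 2022, 2250.4 and 2424 CPM in old 1 to 4, without overlap. Of 40 nuclear genes of oxidative phosphorylation none passed in edgeR, in DESeq2 or at an unadjusted p under 0.05, and 20 of 40 lay above 0.

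Antioxidant and iron genes had 1 higher and 1 lower of 21. Cat (chr2:103453849-103485160), the peroxisomal catalase that breaks down hydrogen peroxide, stood at 190.1, 219.8 and 204 CPM in the 3 young libraries and at 128, 114, 119 and 106 CPM in the 4 old ones. This was a log2 fold change of −0.81 ± 0.11 (SE, adjusted p = 0.00794), lost without young 3 (adjusted p = 0.074). Mt2, a metal-binding metallothionein, rose from 85.6 ± 7.44 to 141 ± 13.5 CPM (log2 fold change 0.71 ± 0.13 SE, adjusted p = 0.0314), and was lost without old 3, old 4, young 1, young 3 or young 4 (adjusted p up to 0.192). With the block Slc40a1 was a further lower member.

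Among the genes that fell, the largest change of the named set was in Gadd45a (chr6:67035096-67037457), a stress-inducible growth arrest protein. The young libraries held 109, 152 and 195 CPM of Gadd45a and the old libraries 68.7, 41.0, 42.6 and 29.0 CPM. The log2 fold change came to −1.73 ± 0.26 (SE, adjusted p = 0.0135), lost without old 3, young 3 or young 4 (adjusted p up to 0.0913). Nrep, a small protein named for nerve regeneration, was measured at 154, 134 and 116 CPM in young 1, 3 and 4 and at 35.5, 49.6, 52.0 and 34.5 CPM in old 1 to 4. On the log2 scale the change was −1.65 ± 0.18 (SE, adjusted p = 0.00197). Abcg1 (chr17:31057675-31117988), which moves cholesterol out of cells to lipoproteins, stood at 381, 422 and 408 CPM in the 3 young libraries and at 168, 187, 193 and 155 CPM in the 4 old ones. The change in log2 terms was −1.20 ± 0.11 (SE, adjusted p = 0.00116), and Nrep and Abcg1, like Sparc, kept their calls in every fit that left out 1 library. Their groups lay well apart, with the lowest young value of Abcg1 at 381 CPM and the highest old value at 193 CPM.

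The other genes described of the lower set had log2 fold changes of −1.48 to −0.97, and each lost its call in several of the fits without 1 library. Auts2 fell from 60.6 ± 5.05 to 21.4 ± 8.63 CPM. The vesicle-traffic GTPase Arf5 fell from 201 ± 44.3 to 75.8 ± 33.3 CPM, and Iqsec1, which activates GTPases of the Arf family, from 424 ± 56.2 to 191 ± 56.5 CPM. Atg7, an enzyme of autophagosome formation, fell from 79.4 ± 15.2 to 32.3 ± 11.02 CPM. Pdia4, a protein disulfide isomerase of the endoplasmic reticulum, fell from 258 ± 45.2 to 119 ± 38.4 CPM and was the single called gene, lower, of 19 in the unfolded protein response list, to which the block added Hyou1 (−1.03, adjusted p = 0.026). In Auts2, Arf5, Atg7, Iqsec1 and Pdia4, as in Gadd45a above, the highest old value was that of old 1. The receptor phosphatase Ptprd, Wscd1 and the transcription factor Sox4 reached adjusted p of 0.0353, 0.0373 and 0.0315. The amino acid transporter Slc43a2 and the ascorbate transporter Slc23a2 lost their calls with the block (adjusted p = 0.0614 and 0.0809). These 10 all lost their calls without old 4, young 3 or young 4, and 9 of them, all but Sox4, without old 3; the highest adjusted p was 0.236, for Pdia4 without young 3.

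Myh11, the myosin heavy chain of smooth muscle, fell from 87.6 ± 8.79 to 45.2 ± 7.12 CPM (log2 fold change −0.95 ± 0.15 SE, adjusted p = 0.0202), lost without old 3, old 4, young 3 or young 4 (adjusted p up to 0.0915). The list of 6 smooth muscle markers, of which 1 of 5 tested passed, summed to 419 to 562 CPM in the young and 242 to 414 CPM in the old libraries. None of the 6 was at 0 in all libraries, and the part of other cells in this result was not tested.

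Several lists had no gene past the test in edgeR. Of 30 proliferation genes 4 had an unadjusted p under 0.05 and 0 passed in DESeq2, and Mki67 measured 21.5 ± 2.14 and 27.1 ± 6.50 CPM. The proliferation median was 0.08, with 18 of 30 above 0. The sum of that list was nevertheless lower in old, at 2625 to 2706 CPM in the young and 2263 to 2489 CPM in the old libraries. Of 10 senescence-associated inhibitors 3 had an unadjusted p under 0.05 and 1 was lower in DESeq2. Their median was −0.20, with 3 of 10 above 0. Cdkn1a, the p21 inhibitor of cyclin-dependent kinases, measured 922 ± 229.6 and 1068 ± 165 CPM (adjusted p = 0.727), and Cdkn2a was too low to be tested. Of 14 genes of leukocyte adhesion 4 had an unadjusted p under 0.05 and 2 were higher in DESeq2, and Icam1 measured 21.3 ± 6.18 and 21.4 ± 4.21 CPM. With the block Vcam1 and Ackr1 were higher in that list too, and Ier3, an early-response gene, was the single such change among immediate-early genes. TGF-beta and BMP signalling (24 genes, 5 at an unadjusted p under 0.05), cholesterol synthesis (18 genes, 2) and the circadian clock (15 genes, 3) had none in DESeq2. The same held for immediate-early and heat shock genes (28 genes, 3) and cytosolic ribosomal proteins (33 genes, 3). Of the ribosomal protein genes 32 of 33 lay above 0, with a median of 0.12, and ribosomal protein reads took 1.74% to 2.02% of young and 2.09% to 2.26% of old libraries.

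Whether the same change occurred in endothelium elsewhere was tested by the difference of age changes between tissues. Kidney endothelium had 3 old and 4 young libraries of the same design, with 929204 to 2552054 counts. Of 14352 genes, 103 (0.718%) differed in their age change, with 29 (0.202%) more positive and 74 (0.516%) more negative in brain. Of the genes called between the ages in brain, 13 of the 51 higher and 19 of the 36 lower had a different change in kidney. The brain libraries that chose these genes also enter this test, so these 2 counts are not independent of the choice. The nuclear RNA Malat1 took 6.69% to 9.08% of counts in young and 5.10% to 5.28% in old kidney libraries, against 1.41% to 2.06% in brain, and its part in these differences was not tested. CPM below are scaled over both tissues and differ slightly from those above.

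Abcg1 had the lowest adjusted p of the genes named. In brain it stood at 407, 444 and 427 CPM in the young and 181, 201, 206 and 165 CPM in the old libraries. In kidney it stood at 362, 321, 298 and 337 CPM in the young and 736, 689 and 601 CPM in the old libraries. Every old brain library lay below every young one and every old kidney library above every young one, and the difference of log2 changes was −2.21 ± 0.18 SE, adjusted p = 1.46e-06. The means of Gadd45a also lay in opposite order, from 160.3 ± 43.6 to 48.5 ± 18.1 CPM in brain and from 45.5 ± 24.7 to 87.5 ± 21.3 CPM in kidney, with overlapping kidney groups (difference −2.72 ± 0.45 SE, adjusted p = 0.0074). Cat, Cd93 and Thbd, lower in old brain, measured 124 ± 15.8, 848 ± 44.8 and 619 ± 52.0 CPM in young kidney and 170.2 ± 47.5, 1008 ± 127 and 785 ± 91.1 CPM in old kidney. Their differences were −1.26 ± 0.23 SE, adjusted p = 0.0138, −0.93 ± 0.18 SE, adjusted p = 0.017 and −0.95 ± 0.18 SE, adjusted p = 0.0159. Each of these 3 differences was lost without young 3 alone (adjusted p = 0.0521).

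Rasgrf2 and Prune2, higher in old brain, had a different age change in kidney. Prune2 measured 24.3 ± 4.04 CPM in young and 101 ± 17.4 CPM in old brain, and 119 ± 34.8 CPM in young and 98.1 ± 17.2 CPM in old kidney (difference 2.33 ± 0.31 SE, adjusted p = 0.00143). Rasgrf2 went from 6.98 ± 1.44 to 36.5 ± 6.99 CPM in brain and measured 36.4 ± 7.59 and 40.7 ± 6.36 CPM in kidney (difference 2.23 ± 0.34 SE, adjusted p = 0.00373). For both genes the old brain mean lay within 1 SD of the old kidney mean. Coro2a, an actin-binding coronin, went from 3.46 ± 0.866 to 21.3 ± 6.31 CPM in brain and stayed at 1.80 to 5.75 CPM in all kidney libraries (difference 3.34 ± 0.58 SE, adjusted p = 0.0111). The differences of H2-K1 (0.02, adjusted p = 0.99), H2-Q6 (1.21, adjusted p = 0.298) and H2-Q7 (1.33, adjusted p = 0.121) did not pass this interaction test. Those of Vwf, Lcn2, Ch25h and Lrg1 did not pass either, at 0.95, 1.39, 1.80 and −0.76 (adjusted p 0.0927 to 0.611).

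On the log2 scale the ages lay further apart in kidney than in brain for Cd74 and Cxcl12. Cd74 measured 34.8 ± 8.88 CPM in young and 281 ± 99.4 CPM in old kidney, but 40.9 ± 6.23 and 50.4 ± 11.3 CPM in brain (difference −2.68 ± 0.34 SE, adjusted p = 0.00117). The chemokine Cxcl12 measured 99.3 ± 34.3 CPM in young and 25.6 ± 2.88 CPM in old kidney, and 2430.5 ± 202 and 2925 ± 382 CPM in brain (difference 2.25 ± 0.31 SE, adjusted p = 0.00145). Aplnr measured 12.5 ± 1.40 CPM in young and 2.30 ± 2.12 CPM in old brain, and 24.3 ± 9.12 CPM in young and 47.6 ± 1.79 CPM in old kidney (difference −3.34 ± 0.53 SE, adjusted p = 0.00583). Of the differences in this comparison that are named here or below, Coro2a, Prune2, Cxcl12, Aplnr, Gadd45a, Cd74, Rasgrf2, Wscd1 and Abcg1 held whichever brain library was left out. The count of more positive differences was 19, 19, 9 and 14 without old 3, old 4, young 3 and young 4, and that of more negative ones was 119, 46, 30 and 40 without old 1 to 4 and 19 and 39 without young 3 and young 4.

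**Figure D5:**
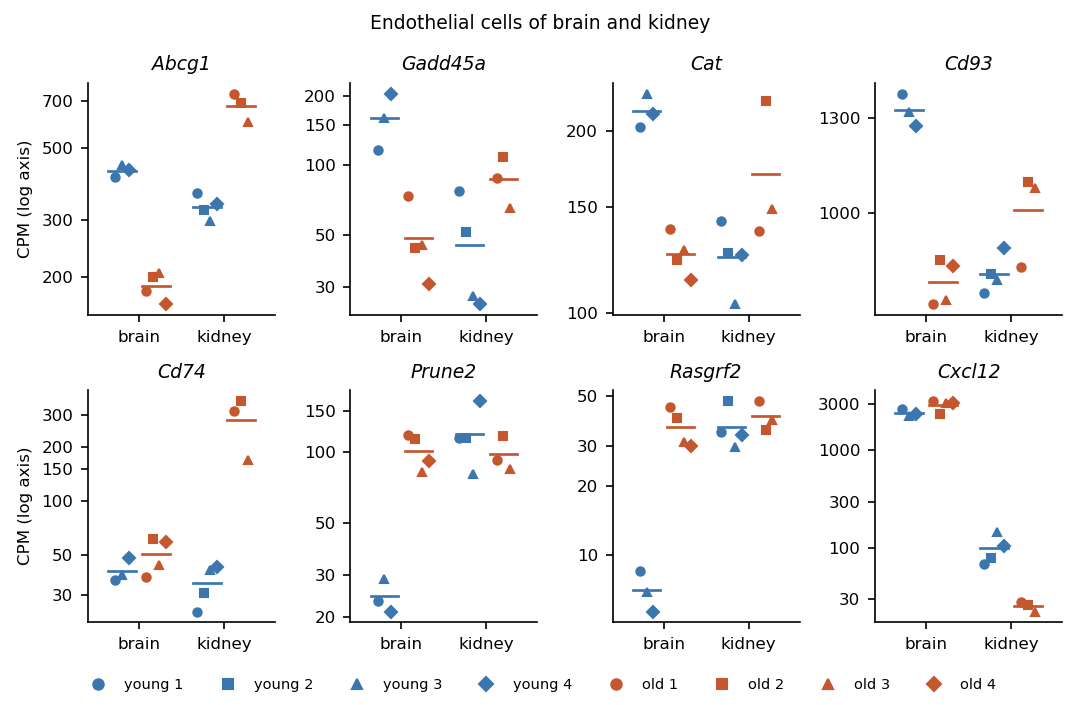
CPM (log axis) of 8 genes in young and old endothelium of brain (3 and 4 libraries) and kidney (4 and 3 libraries); points are libraries and bars are group means. Abcg1 lies at 407 to 444 CPM in young and 165 to 206 CPM in old brain, but at 298 to 362 CPM in young and 601 to 736 CPM in old kidney.

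Lymph node endothelium had 3 old and 3 young libraries, with 1783254 to 6842337 counts. Of 13272 genes, 9 (0.0678%) differed in their age change from brain, 6 (0.0452%) more positive and 3 (0.0226%) more negative in brain, and 6 of the 51 genes higher in old brain were among them, with 0 of the 36 lower ones. Here too the brain libraries that chose the genes enter the test. The count at an unadjusted p under 0.05 was 1111, and DESeq2 called 36 more positive and 77 more negative. Cyp1b1 went from 1.59 ± 0.850 to 25.8 ± 3.17 CPM in brain and measured 31.0 ± 9.51 and 43.3 ± 2.24 CPM in lymph node (difference 3.51 ± 0.45 SE, adjusted p = 0.00503, with adjusted p = 0.057 when the replicate number was a block). H2-Q6 and H2-Q7 were abundant at both ages in lymph node, with H2-Q7 at 272 ± 56.4 CPM in the young group and 259.9 ± 46.1 CPM in the old (difference 2.36 ± 0.37 SE, adjusted p = 0.0221 for H2-Q7 and 2.43 ± 0.30 SE, adjusted p = 0.00503 for H2-Q6). Rasgrf2 measured 29.4 ± 4.43 and 40.0 ± 3.06 CPM there (difference 1.92 ± 0.32 SE, adjusted p = 0.0347, and adjusted p = 0.117 with the block). Old brain endothelium stayed below old lymph node endothelium in the mean level of Cyp1b1, H2-Q6, H2-Q7 and Rasgrf2. Apold1, an endothelial early-response protein, had the wider gap between the ages in lymph node, from 435 ± 9.93 to 1782 ± 473 CPM in lymph node and from 1265 ± 64.0 to 1511 ± 235 CPM in brain (difference −1.78 ± 0.26 SE, adjusted p = 0.0169). Cyp1b1 and H2-Q6 kept their differences whichever brain library was left out. H2-Q7 lost its without young 1 or young 3 (adjusted p up to 0.0731) and Apold1 without young 3 or young 4 (up to 0.0677). Rasgrf2 lost its without old 1, old 2, young 3 or young 4 (up to 0.127). Without young 3 the count of more positive differences was 3, and the count of more negative ones was 1 without old 1, old 4 or young 3 and 0 without young 4, where edgeR gave 540 such genes at an unadjusted p under 0.05.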

How the data were processed

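RNA was measured in 7 libraries of sorted brain endothelium (4 old, 3 young). Per the labels' protocols, poly(A) libraries were biased to the 3′ end and carried an 8-base sample index and a 10-base unique molecular identifier, and reads were assigned to samples with sabre 80faf94. Per the submitters' processing notes, STAR and featureCounts 2.0.1 were used with GRCm38.p6/mm10. No source used here says whether identifiers were used to collapse reads or whether counting used strand. The deposited values are raw counts for 55484 genes.

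Counts were filtered (filterByExpr, minimum count 10, total 15), scaled by TMM and tested with edgeR 4.0.16 in R 4.3.3 (quasi-likelihood test, Benjamini-Hochberg threshold 0.05). CPM use the TMM library sizes. Tissue comparisons tested an age-by-tissue interaction over both tissues' libraries. Alternatives were RLE factors, no filter, a minimum count of 50, DESeq2 1.42.0, spread shared with the other endothelial libraries, the replicate block, each brain library left out, and batch fits. Deviations of same-numbered libraries correlated at 0.213, 0.117 and 0.286 for numbers 1, 3 and 4, taken from the titles, and the numbers were treated as pairs because each exceeded 0.1. Old 2, which has no partner, correlated with young 1 at 0.326, and old 3 correlated with young 4 at 0.187, above its own number. In the block fits, those of the tissue comparisons included, a library without a same-numbered partner does not enter the age change. On simulated data, edgeR recovered 42.3% of 2-fold and 89.0% of 4-fold changes between the ages (11838 genes, 8.96% false calls). The kidney interaction recovered 10.3% and 50% (13980 genes), and the lymph node interaction 2.08% and 49.5% (12950 genes).

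Named genes passed the threshold, did not overlap between the ages and averaged at least 20 CPM in the group where they were higher; of these the top 15 and bottom 15 by log2 fold change were taken, plus up to 6 called members of each list and all endothelial markers. For interactions the 6 highest and 6 lowest differences per tissue pair were named. Genes of chromosome Y, Xist, unnamed models and pseudogenes were left out, and 1 gene that the rule names is not reported here. Genes named because the block changed their call were chosen after their values were seen. The comparison and the 26 functional and 18 marker lists were chosen with earlier results of these data known. Positions are from GENCODE M21 (GRCm38); 53362 of 55484 names matched. The 37 mitochondrial genes of the table hold no counts in these libraries.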

Additional observations from a re-analysis of the deposited data

Results flagged for a closer look

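In the 4 old libraries 1 value stood apart from the others for 3 named genes and for the count of chromosome Y reads. The gap to the nearest library, as a share of the range, was 0.851 for Atg7, 0.884 for Pdia4 and 0.854 for Ly6c1, above Dixon's critical value for 4 samples. Old 1 was the high library for Atg7 (48.7 CPM) and Pdia4 (176 CPM), and old 2 for Ly6c1 (4031 CPM), a surface protein of brain endothelium. Chromosome Y reads numbered 338 in old 4 and 17 to 43 in the other old libraries, a share of 0.919. Chance gives such a gap in about 1 of 20 groups, and 72 were examined.

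The age change differed between brain and kidney endothelium, by edgeR's interaction test, for genes of several kinds. It was more positive in brain for Cyp2e1 (difference of log2 changes 4.03), Coro2a (3.34), Shtn1 (2.48), Prkar2b (2.35), Prune2 (2.33), Cxcl12 (2.25), Rasgrf2 (2.23) and Depp1 (1.84). Cyp2e1 was at 0 to 5.75 CPM in all kidney libraries. Shtn1, which acts in neuron polarity, and Prkar2b, a regulatory subunit of protein kinase A, were lower in every old than in every young kidney library. It was more negative in brain for Aplnr (−3.34), the lipoprotein lipase anchor Gpihbp1 (−3.24), Car8 (−3.20), Gadd45a (−2.72), Cd74 (−2.68) and the adhesion molecule Ncam1 (−2.48). Gpihbp1 was at 0 to 5.62 CPM in brain, and at 190.2 to 326 CPM in young and 446 to 556 CPM in old kidney. Car8 was at 0.307 to 7.14 CPM in brain, and at 29.4 to 48.65 CPM in young and 130 to 197 CPM in old kidney. The difference for Car8 did not pass in DESeq2 (adjusted p = 0.0512). Among genes that fell in old brain the difference was −2.21 for Abcg1, −1.99 for Arf5, −1.86 for Atg7, −1.84 for Wscd1, −1.45 for Pdia4, −1.43 for Slc23a2, −1.28 for Sox4, −1.26 for Cat, −1.23 for Nrep, −0.95 for Thbd and −0.93 for Cd93. The difference for Slc23a2 lost its call with the replicate block (adjusted p = 0.0939) and whichever brain library was left out (up to 0.101).

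Between brain and lymph node endothelium the difference was 3.51 for Cyp1b1, 2.94 for the calmodulin-dependent kinase Camk4, 2.43 for H2-Q6, 2.36 for H2-Q7 and 1.92 for Rasgrf2. It was −2.58 for the growth factor Hbegf, −1.78 for Apold1 and −1.27 for Pmaip1, a pro-apoptotic protein. The difference for Pmaip1 lost its call whichever brain library was left out (adjusted p up to 0.138) and with the replicate block (adjusted p = 0.0714). That for Camk4 was lost in 6 of the fits without 1 library (up to 0.165) and with the block (adjusted p = 0.175). That for Hbegf was lost in 5 of them (up to 0.121) and kept with the block. Camk4 was at 0.875 to 3.15 CPM in brain, and at 33.1 to 40.4 CPM in young and 8.71 to 15.5 CPM in old lymph node. Pmaip1 was higher at old age in both tissues, at 161 to 166 CPM in young and 249.6 to 269.9 CPM in old brain, and at 7.03 to 12.5 CPM in young and 37.9 to 40.0 CPM in old lymph node.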

How the results depend on the processing

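Against 51 higher and 36 lower genes, no filter on low counts gave 157 and 280, DESeq2 98 and 164, and the replicate block 82 and 130. Leaving out 1 brain library gave 18 to 46 higher and 4 to 91 lower genes. RLE factors, the shared spread and a minimum count of 50 stayed within 1.5 times, but the shared spread kept only 40 of the 51 and 14 of the 36 calls. Chosen after seeing the data, a batch term for numbers 1 and 2 against 3 and 4 gave 85 and 117, keeping all 51 and 36. Numbers 1 and 2 alone (2 old, 1 young) gave 13 and 6, with the lone young library assumed to vary like the old, and numbers 3 and 4 alone 62 and 145. For kidney (29 and 74), no filter gave 103 and 206, DESeq2 75 and 221, and the block 53 and 100, losing Slc23a2 of the named differences; leaving out 1 library gave 9 to 35 and 19 to 119. For lymph node (6 and 3), no filter gave 58 and 244, DESeq2 36 and 77, and the block 6 and 17, with 4 of 8 named differences lost; leaving out 1 library gave 3 to 6 and 0 to 4. The causes of these shifts were not tested. Of 45 named genes called between the ages, none reversed in any setting run; RLE factors ended 3 calls, the block pairing 2, the shared spread 13, a minimum count of 50 1 of 42, and single libraries 6 (old 1) to 32 (young 3). Kidney libraries held 929204 to 2552054 counts and brain libraries 2240391 to 3509977, which limits that comparison.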

Other observations

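Among the 36 genes lower in old brain endothelium, 7 lay on chromosome 6, which holds 5.21% of the genes tested: Gadd45a, Arf5, Atg7, Iqsec1, Pdia4, Ndnf and Tril. Chromosomes 2 and 11 held 5 each. The 51 higher genes had at most 5 on any 1 chromosome, with 5 on each of chromosomes 3 and 17. Ndnf, a secreted neuron-derived factor, was at 234, 219.8 and 208 CPM in the young and 118, 110.5, 156 and 88.2 CPM in the old libraries. The chromosome was looked at after the genes were known, and no test was made.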
